A study of Mus musculus with 8 samples.

Results

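Transcripts of neutrophils and macrophages were followed through 8 libraries of sorted naive T cells, as 10 gene symbols taken by name out of 23337 in each table. The granule genes are the 6 symbols Ngp, Camp, Ltf, Lcn2, S100a8 and S100a9. The macrophage genes are the 4 symbols Lyz2, C1qb, Cd68 and Csf1r. The cells were CD62L+ and CD44low CD4 or CD8 T cells from mLNs and spleens of mice aged 4 weeks, so none of the 10 genes marks the cells that were sorted. The groups were CD4 WT and CD8 WT from wild-type mice, and CD4 KO and CD8 KO from mice with a CD4-cre conditional knockout of Trappc1, with 2 libraries in each. CD4-cre acts in developing T cells of both lineages, and what it did in myeloid cells was not measured. The sources used here name neither the strain nor a separate mouse for each library, so p-values reflect how far these libraries spread, and that spread may be technical.

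Neutrophils mature in the bone marrow and fill their granules in waves. The later, specific granules hold lactoferrin (Ltf), the cathelicidin precursor (Camp), the related neutrophilic granule protein (Ngp) and lipocalin 2 (Lcn2), which withholds iron from bacteria. S100a8 and S100a9 together form calprotectin, a metal-binding protein of the neutrophil cytosol that monocytes also make. Among the macrophage genes, Lyz2 encodes lysozyme, which neutrophils express too, C1qb a chain of complement C1q, Cd68 a lysosomal membrane glycoprotein, and Csf1r the receptor for a growth factor that macrophages need.

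The start regions of the granule genes are shown first. The levels of these genes moved together across the libraries, and whether the start regions bear on that was not tested. In the mm10 positions of the files, Camp (chr9:109847377-109849456), Ngp (chr9:110419808-110423012) and Ltf (chr9:111019292-111042766) lie within 1195 kb, with gaps of 570 kb and 596 kb. S100a8 (chr3:90669071-90670034) and S100a9 (chr3:90692633-90695691) lie 22.6 kb apart. Lcn2 (chr2:32384637-32387739), Lyz2 (chr10:117277541-117282272), C1qb (chr4:136880145-136886177) and Cd68 (chr11:69664371-69666062) lie on other chromosomes. C/EBP proteins are transcription factors of granulocyte development, and TTGCNNAA is a form of their binding site. Searched on both strands over the 250 bases before the RefSeq start (GRCm38.p6), it matched in 4 of the 6 granule genes, and in 9.56% of 32851 windows of that length. The windows that hold a match are those of Ngp (chr9:110419558-110419807, plus strand), Ltf (chr9:111019042-111019291, plus strand), Lcn2 (chr2:32387740-32387989, minus strand) and S100a9 (chr3:90695722-90695971, minus strand), given 5′ to 3′ along the gene with the matches in capitals.
Ngp: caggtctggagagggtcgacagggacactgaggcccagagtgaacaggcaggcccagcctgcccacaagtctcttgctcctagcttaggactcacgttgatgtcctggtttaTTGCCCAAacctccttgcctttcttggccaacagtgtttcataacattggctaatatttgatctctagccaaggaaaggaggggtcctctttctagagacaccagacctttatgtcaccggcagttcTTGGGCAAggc
Ltf: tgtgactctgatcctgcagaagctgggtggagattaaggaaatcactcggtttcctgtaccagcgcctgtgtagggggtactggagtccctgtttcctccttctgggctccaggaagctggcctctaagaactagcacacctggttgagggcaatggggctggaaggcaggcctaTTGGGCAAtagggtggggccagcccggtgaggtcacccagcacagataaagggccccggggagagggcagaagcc
Lcn2: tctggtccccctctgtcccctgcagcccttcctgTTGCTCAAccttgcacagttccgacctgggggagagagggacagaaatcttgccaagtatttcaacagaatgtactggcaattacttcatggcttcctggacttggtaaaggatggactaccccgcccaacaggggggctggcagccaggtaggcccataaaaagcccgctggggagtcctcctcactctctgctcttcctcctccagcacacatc
S100a9: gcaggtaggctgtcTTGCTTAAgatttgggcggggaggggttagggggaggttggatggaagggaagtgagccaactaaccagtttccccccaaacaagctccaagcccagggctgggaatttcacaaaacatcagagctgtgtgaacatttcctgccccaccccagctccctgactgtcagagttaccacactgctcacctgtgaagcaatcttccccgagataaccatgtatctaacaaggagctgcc
Ngp holds 2 matches, and the letters TTGGGCAA stand in both the Ngp and the Ltf window. Of the 3 macrophage genes whose window was searched, Cd68 holds a match. GAGGAAGT, a form of the site of the myeloid factor PU.1, matched on either strand in S100a8 and in 2.44% of all windows. A match is a string of letters and not a measured binding site.

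Levels are given in TPM, a share of all transcripts corrected for gene length, and coverage is the mean number of times each base of a gene was read. Depth, estimated from the tables, was 3.03 to 4.01 gigabases of aligned sequence per library. Symbols listed at 0 numbered 10090 and 7810 (CD4 WT), 5952 and 6919 (CD4 KO), 10634 and 9762 (CD8 WT) and 8566 and 8286 (CD8 KO). Fewer symbols were thus at 0 in either knockout group than in its wild type, and what this does to scarce genes was not tested. Trappc1, the targeted gene, stood at 78.7 and 55.0 TPM (CD4 WT), 30.5 and 32.8 TPM (CD4 KO), 81.2 and 40.3 TPM (CD8 WT) and 56.9 and 45.6 TPM (CD8 KO). The labels do not say which part of the gene is deleted. Against its label, the second CD8 WT library (called the library labelled CD8 WT replicate 2 throughout) held less Trappc1 than either CD8 KO library. That library also stood apart in erythroid genes, which summed to 97213 TPM there and to 371 to 2581 TPM in the other 7. Between the wild-type lineages Cd4 (-5.98 ± 0.66 in log2), Cd8a (6.07 ± 0.53) and Cd8b1 (5.82 ± 0.58) differed as labelled, with limma adjusted p of 0.00655, 0.00345 and 0.00508. The library labelled CD8 WT replicate 2 held less of both CD8 genes than CD8 WT replicate 1. In that order, Cd8a stood at 163 and 548 TPM, Cd8b1 at 658 and 2192 TPM, and Cd4 at 14.5 and 5.75 TPM. Comparisons of the granule and macrophage genes that rest on the library labelled CD8 WT replicate 2 are given with and without it.

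Summed granule genes stood at 141 and 24.2 TPM (CD4 WT), 638 and 1243 TPM (CD4 KO), 487 and 25869 TPM (CD8 WT) and 598 and 971 TPM (CD8 KO). They were lowest in CD4 WT and made up 2.59% of all TPM in the library labelled CD8 WT replicate 2, against 0.00242% to 0.124% in the other 7 libraries. Summed macrophage genes stood at 103 and 61.6 TPM (CD4 WT), 707 and 993 TPM (CD4 KO), 152 and 2911 TPM (CD8 WT) and 594 and 580.0 TPM (CD8 KO). In both sums all 4 knockout libraries lay above both CD4 WT libraries and above CD8 WT replicate 1. The order of group means was CD8 WT, CD4 KO, CD8 KO and CD4 WT for both sums. CD8 WT overlapped the knockout groups, since its libraries lay on either side of them, and in the macrophage sum CD4 KO lay above CD8 KO without overlap. In bulk samples, fewer cells of a type and less RNA per cell cannot be told apart.

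**Figure D1:**
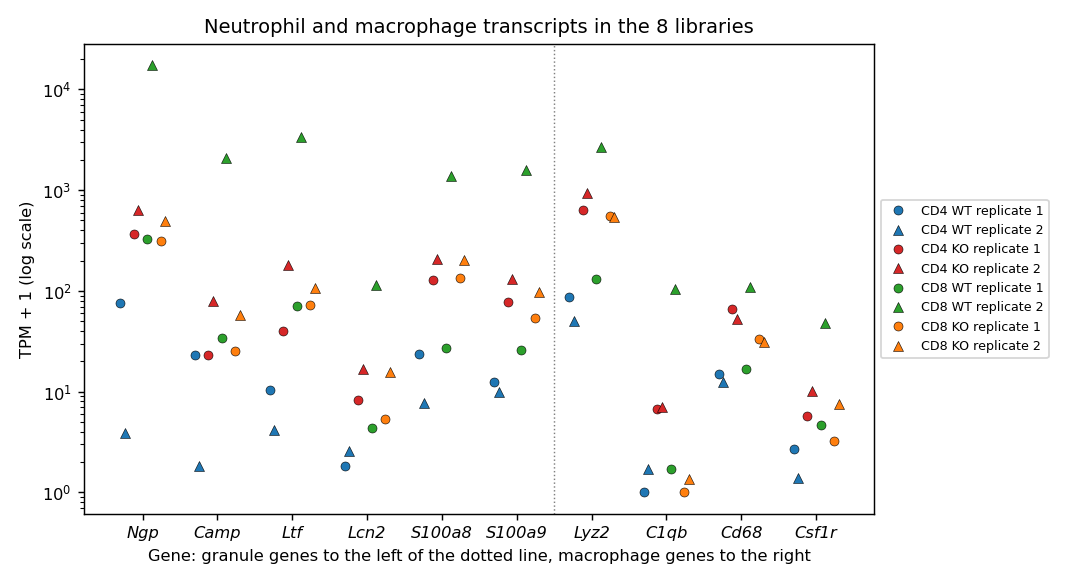
Level of each gene in the 8 libraries as TPM + 1 on a log axis, with the group given by colour and the replicate by the shape of the point. The library labelled CD8 WT replicate 2 is the highest point for all 10 genes, for example 17333 TPM for Ngp.

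Ngp stood at 74.4 and 2.93 TPM (CD4 WT), 364 and 632 TPM (CD4 KO), 329.6 and 17333 TPM (CD8 WT) and 312 and 497 TPM (CD8 KO). CD4 KO lay above CD4 WT without overlap, while the CD8 WT libraries fell on the knockout level and far above it. Coverage of Ngp was 3.87 reads per base in CD4 WT replicate 2 and 109.5 or more in the other libraries, so its lowest value rests on few reads. Camp stood at 22.0 and 0.838 TPM (CD4 WT), 21.9 and 78.4 TPM (CD4 KO), 33.0 and 2080.0 TPM (CD8 WT) and 24.6 and 56.5 TPM (CD8 KO). Its CD4 groups overlapped, because replicate 1 of each was level. Ltf stood at 9.44 and 3.18 TPM (CD4 WT), 39.3 and 182 TPM (CD4 KO), 70.2 and 3407 TPM (CD8 WT) and 71.5 and 106 TPM (CD8 KO). For Ltf, CD8 WT replicate 1 was level with CD8 KO replicate 1 and the CD4 groups were apart. Lcn2 stood at 0.836 and 1.60 TPM (CD4 WT), 7.26 and 15.7 TPM (CD4 KO), 3.34 and 114 TPM (CD8 WT) and 4.36 and 14.6 TPM (CD8 KO). It was the weakest granule gene in most libraries, with a coverage of 1.23 to 22.0 reads per base outside the library labelled CD8 WT replicate 2, which limits the precision of its low values.

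For the calprotectin genes the knockout groups of the lineages overlapped. S100a8 stood at 22.9 and 6.73 TPM (CD4 WT), 128 and 205 TPM (CD4 KO), 26.4 and 1368 TPM (CD8 WT) and 133 and 202 TPM (CD8 KO). S100a9 stood at 11.5 and 8.94 TPM (CD4 WT), 76.8 and 131 TPM (CD4 KO), 24.9 and 1567 TPM (CD8 WT) and 52.8 and 95.5 TPM (CD8 KO). For both genes all 4 knockout libraries exceeded the 3 wild-type libraries other than the library labelled CD8 WT replicate 2. Lcn2, Lyz2 and Cd68 did the same, which makes 5 of the 10 genes, against 8.05% of all genes, and for CD8 cells this order rests on 1 wild-type library.

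Lyz2 made up 79.6% to 94.1% of the macrophage sum, so that sum is largely a lysozyme value. Lyz2 stood at 86.9 and 49.0 TPM (CD4 WT), 631 and 926 TPM (CD4 KO), 131 and 2651 TPM (CD8 WT) and 559 and 543 TPM (CD8 KO). The CD8 KO libraries agreed closely and averaged 4.19 times CD8 WT replicate 1. Cd68 stood at 13.9 and 11.5 TPM (CD4 WT), 65.7 and 51.3 TPM (CD4 KO), 15.9 and 108 TPM (CD8 WT) and 32.5 and 30.0 TPM (CD8 KO). Like Lyz2, it was lower in both CD8 KO libraries than in both CD4 KO libraries.

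The genes more restricted to macrophages were scarce. C1qb was listed at 0 and 0.727 TPM (CD4 WT), 5.75 and 6.10 TPM (CD4 KO), 0.727 and 104 TPM (CD8 WT) and 0 and 0.355 TPM (CD8 KO). Csf1r stood at 1.72 and 0.380 TPM (CD4 WT), 4.78 and 9.20 TPM (CD4 KO), 3.65 and 47.3 TPM (CD8 WT) and 2.20 and 6.50 TPM (CD8 KO). Both were higher in CD4 KO than in CD4 WT without overlap, at low levels. Outside the library labelled CD8 WT replicate 2 coverage reached at most 7.85 reads per base for C1qb and 11.8 for Csf1r, and a listed 0 can be a failed estimate. Adgre1 (listed as Emr1), which encodes F4/80 and was chosen after its values were seen, stood at 0.0250 to 2.25 TPM in the other 7 libraries and at 6.67 TPM in that one. In those 7 libraries the name macrophage thus rests on Lyz2, the abundant transcript, on Cd68 (11.5 to 65.7 TPM) and on low values of C1qb, Csf1r and Adgre1.

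All 10 genes were highest in the library labelled CD8 WT replicate 2, as were 15.0% of the 11786 genes tested. Against CD8 WT replicate 1 it was higher by a factor of 52.6 for Ngp, 63.1 for Camp, 48.5 for Ltf, 34.0 for Lcn2, 51.9 for S100a8 and 63.0 for S100a9. The factor was smaller for Lyz2 (20.2) and Cd68 (6.76), with Csf1r between them, and the factor for C1qb (144) starts from a coverage of 1.10 reads per base. These factors compare single libraries and have no replicate check.

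Some granule genes kept different proportions to one another in different groups. Ngp over S100a8 was 12.5 and 12.7 (CD8 WT), 2.83 and 3.08 (CD4 KO), 2.35 and 2.46 (CD8 KO) and 3.25 and 0.435 (CD4 WT). The CD8 WT libraries thus held nearly the same ratio at summed levels 53.1 times apart, and the 4 knockout libraries held a lower one. S100a8 made up 5.41% and 5.29% of the granule sum in CD8 WT and 16.5% to 22.2% in the knockout libraries. CD4 WT replicate 2 was led by S100a9, with 36.9%, at low coverage. These proportions are a description and were not tested.

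**Figure D2:**
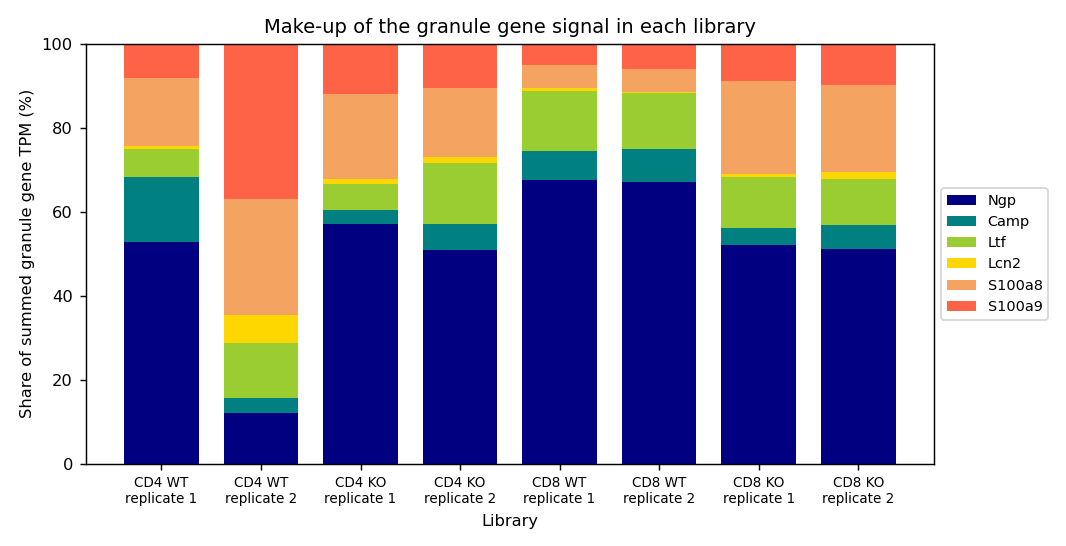
Share of each gene in the summed TPM of the 6 granule genes, in percent, with 1 bar per library. Ngp takes 67.6% and 67.0% in the CD8 WT libraries and 50.8% to 57.1% in the 4 knockout libraries.

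The granule sum was 3.21 and 8.89 times the macrophage sum in CD8 WT. In the knockout libraries it was 0.902 to 1.67 times, and in CD4 WT 1.37 and 0.393 times. Both CD8 WT libraries therefore lay above all other libraries in this balance.

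In CD4 cells all 10 genes had a higher mean in the knockout, and none passed the test over all genes. The ratio of group means was 12.9 for Ngp, 11.5 for Lyz2 and 11.3 for S100a8, and over the 9 genes other than C1qb it ran from 4.40 (Camp) to 17.5 (Ltf). Differences in log2(TPM + 1), which understate the change of low genes, were 4.80 ± 1.66 (SE) for Ngp, 3.70 ± 1.43 for Ltf, 3.59 ± 1.38 for S100a8, 3.18 ± 1.40 for S100a9 and 3.53 ± 1.04 for Lyz2. They were 2.71 for Camp, 2.43 for Lcn2, 2.40 for C1qb, 2.12 for Cd68 and 1.99 for Csf1r. Adjusted p-values (limma, Benjamini-Hochberg over 11786 genes) ran from 0.142 for Lyz2 to 0.452 for Camp, and 0.713% of all genes were called. At an unadjusted p under 0.05, 6 of the 10 were higher, as were 5.03% of all genes. The libraries did not overlap for 9 of 10, all but Camp, against 21.7% of all genes. The median difference was 3.39 for the granule and 2.26 for the macrophage genes, beside -0.16 for all genes tested. CD4 WT replicate 2 carried much of the value of 2 genes: without it the difference was 2.67 for Ngp and 0.89 for Camp, and without CD4 WT replicate 1 it was 4.54 for Camp.

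The error of these CD4 differences includes the spread of the CD8 WT libraries, since the fit pools all groups. Leaving the library labelled CD8 WT replicate 2 out does not change these differences, and Lyz2 (adjusted p = 0.00447), S100a9 (0.0117), Cd68 (0.0162), S100a8 (0.0171), Ltf (0.0332) and C1qb (0.0442) passed limma. These are 6 of 10, where 2.26% of all genes were called higher. Ngp (0.0559), Lcn2 (0.0780), Csf1r (0.113) and Camp (0.189) did not pass. Without CD8 WT replicate 1 instead, the same 6 passed (2.23% of all genes), and with the CD4 libraries fitted alone 3 did (S100a9, Lyz2 and Cd68), where 0.721% of all genes were called higher. Array weights, which give a deviating library less weight, left 6 past the test (Ngp, Ltf, S100a8, S100a9, Lyz2 and Cd68), where 3.26% of all genes were called higher. With any 1 of the 4 CD4 libraries left out, none of the 10 passed.

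In CD8 cells the direction depended on 1 library. With all 8 libraries the 10 differences were negative, at -3.54 ± 1.49 for C1qb, -2.79 ± 1.69 for Camp, -2.60 ± 1.66 for Ngp, -2.48 ± 1.43 for Ltf, -1.61 for Csf1r, -1.48 for S100a9 and -1.29 for Lcn2. They were smaller for Cd68 (-0.41), S100a8 (-0.23) and Lyz2 (-0.10). None passed limma (adjusted p 0.309 to 0.971), and 0.297% of all genes were called. C1qb was the 1 gene lower at an unadjusted p under 0.05, against 8.01% of all genes, and the 1 gene whose libraries did not overlap, against 19.1% of all genes.

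Without the library labelled CD8 WT replicate 2, 9 of the 10 differences were positive. They were 2.59 for S100a8, 2.06 for Lyz2, 1.48 for S100a9, 1.08 for Lcn2 and 0.93 for Cd68. For Ltf (0.31), Ngp (0.26), Camp (0.18) and Csf1r (0.08) they were close to 0, and C1qb stood at -0.57. None passed limma (the lowest adjusted p was 0.0782, for Lyz2), where 0.170% of all genes were called higher. This fit holds 1 CD8 WT library and assumes that it varies like the other groups. Both CD8 KO libraries exceeded CD8 WT replicate 1 for 6 of 10 genes (Ltf, Lcn2, S100a8, S100a9, Lyz2 and Cd68), against 32.4% of all genes. Without CD8 WT replicate 1 instead, all 10 were lower in the knockout and passed limma (adjusted p 0.00332 to 0.0448), where 6.60% of all genes were called lower.

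**Figure D3:**
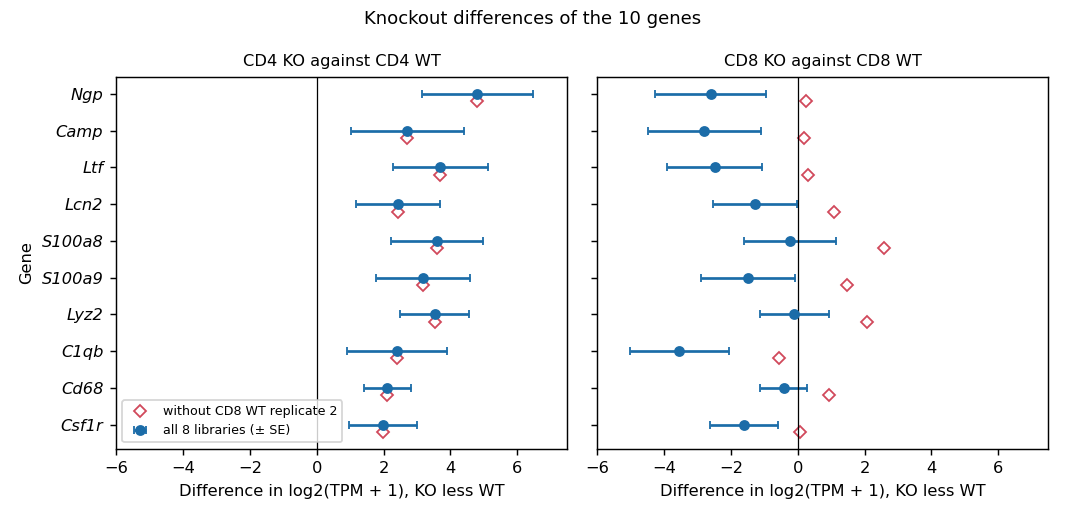
Knockout less wild-type difference in log2(TPM + 1) for each gene in CD4 cells and in CD8 cells. Filled points with bars use all 8 libraries ± SE, and open diamonds leave out the library labelled CD8 WT replicate 2, which puts 9 of 10 CD8 values above 0.

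The difference between the knockout effects, CD8 less CD4, was negative for all 10 genes, from -7.41 ± 2.34 for Ngp to -2.53 ± 0.99 for Cd68. None passed limma (adjusted p = 0.701 for each), and 0% of all genes were called. At an unadjusted p under 0.05, 8 of 10 were lower, all but Lcn2 and S100a8, against 3.09% of all genes. With the library labelled CD8 WT replicate 2 left out, the median was -2.12 for granule genes in place of -5.09, and -1.69 for macrophage genes in place of -3.62, with adjusted p of 0.484 to 0.856. Without CD8 WT replicate 1 all 10 passed, as lower, against 4.42% of all genes.

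In wild type, both CD8 libraries exceeded both CD4 libraries for all 10 genes, against 9.53% of all genes. For C1qb this order holds only beyond the digits printed above, at coverages of 0.959 (CD4 WT replicate 2) and 1.10 (CD8 WT replicate 1) reads per base, so those libraries were level. The log2 difference was 7.12 ± 1.66 for Ngp, 6.22 ± 1.43 for Ltf, 5.35 ± 1.69 for Camp and 4.18 ± 1.40 for S100a9, and smallest for Cd68, at 1.65 ± 0.70. None passed limma (adjusted p 0.204 to 0.573), and 0.195% of all genes were called. At an unadjusted p under 0.05 all 10 were higher, against 3.28% of all genes. Without the library labelled CD8 WT replicate 2 all 10 stayed positive, in a fit with 1 CD8 WT library. The medians were then 1.80 for granule and 0.70 for macrophage genes, in place of 4.77 and 3.06. Without CD8 WT replicate 1 the medians were 7.73 and 4.98, with the library labelled CD8 WT replicate 2 as the only CD8 WT library. Neither fit shows how far CD8 WT libraries spread. This comparison shares its libraries with the knockout comparisons.

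In the knockout, CD8 and CD4 libraries were close in granule genes. The log2 difference, CD8 less CD4, ran from -0.49 ± 1.40 for S100a9 to 0.04 ± 1.43 for Ltf, with a median of -0.22. The sign of that median was not stable: it became 0.25 without CD4 KO replicate 2 and 0.32 without CD8 KO replicate 1, and -0.87 and -0.68 without the other library of each group. Ngp stood at -0.29 ± 1.66 and S100a8 at 0.01, which became -0.01 with median-of-ratios scaling. The macrophage genes had a median of -0.76, with C1qb at -2.57 ± 1.49, Cd68 at -0.87 ± 0.70 and Lyz2 at -0.47 ± 1.04. Those 3 genes were lower in CD8 KO without overlap, against 25.8% of all genes. None of the 10 passed limma (adjusted p 0.636 to 1, and none at an unadjusted p under 0.05), and 0.280% of all genes were called. The standard errors are too wide to show that the lineages held equal amounts.

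Other neutrophil genes were set beside the granule genes. Of 27 further granule and maturation genes, 23 were tested and 22 had a higher mean in CD4 KO, with a median difference of 1.31 and 0 past limma (3 higher at an unadjusted p under 0.05). Of all genes tested, 41.7% had a higher mean in CD4 KO and 5.03% were higher at that p, which is the background for the lists that follow. The further granule genes summed to 68.8 and 28.3 TPM (CD4 WT), 134 and 192 TPM (CD4 KO), 83.4 and 3365 TPM (CD8 WT) and 145 and 225 TPM (CD8 KO). CD4 KO again lay above CD4 WT without overlap, and both CD8 KO libraries lay above CD8 WT replicate 1. Mpo, the myeloperoxidase of the early azurophil granules, stood at 21.1 and 0 TPM (CD4 WT), 3.17 and 8.41 TPM (CD4 KO), 22.7 and 908 TPM (CD8 WT) and 0 and 13.4 TPM (CD8 KO), so its CD4 groups overlapped. Cd177, a neutrophil surface protein, stood at 9.74 and 4.34 TPM (CD4 WT), 10.9 and 23.8 TPM (CD4 KO), 8.01 and 587 TPM (CD8 WT) and 34.8 and 13.2 TPM (CD8 KO).

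Values of some other granule genes, chosen after their values were seen, are a description, and a pattern by stage was not tested. Over the whole list of 27, both CD4 KO libraries lay above both CD4 WT libraries for 14 genes and below them for 0. Of all genes tested, 21.7% lay above and 36.5% below. The list includes genes too low to be tested, so these shares are not a like set. Elane, the elastase of azurophil granules, stood at 12.8 and 0 TPM (CD4 WT), 11.2 and 5.92 TPM (CD4 KO), 5.24 and 274 TPM (CD8 WT) and 0.988 and 24.9 TPM (CD8 KO). Prtn3, a protease of the same granules, stood at 1.85 and 0 TPM (CD4 WT), 1.93 and 7.45 TPM (CD4 KO) and 1.94 and 171 TPM (CD8 WT). Mmp8, a collagenase of later granules, stood at 7.75 and 1.53 TPM (CD4 WT), 17.0 and 36.3 TPM (CD4 KO), 6.15 and 166 TPM (CD8 WT) and 29.0 and 35.7 TPM (CD8 KO). The CD4 groups overlapped for Elane, as they did for Mpo and for Camp of the later granules. They did not overlap for Prtn3 (by a narrow margin), for Mmp8 or for Mmp9, a gelatinase gene listed at 0 in either CD4 WT library and at 9.67 and 6.41 TPM in CD4 KO.

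Of 21 neutrophil receptor and signalling genes tested, 16 had a higher mean in CD4 KO, with a median of 1.21 and 0 past limma (1 at an unadjusted p under 0.05). Cybb, a subunit of the phagocyte oxidase that B cells also express, went the other way, at 128 and 99.4 TPM in CD4 WT, against 57.9 and 56.0 TPM in CD4 KO. Ncf1, another subunit, stood at 31.3 and 74.4 TPM in CD4 WT, against 68.3 and 96.5 TPM in CD4 KO. Csf3r, the receptor for granulocyte colony-stimulating factor (chosen after its values were seen), reached 3.49 TPM outside the library labelled CD8 WT replicate 2 and 14.2 TPM in it.

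Of 38 further macrophage and monocyte genes, 28 were tested and 23 had a higher mean in CD4 KO, with a median of 0.83 and 0 past limma (1 at an unadjusted p under 0.05). Their sum overlapped between CD4 WT (1314 and 1063 TPM) and CD4 KO (1357 and 1289.9 TPM). It was led by Apoe and the protease gene Ctss, with Apoe at 507 and 384 TPM in CD4 WT, against 606 and 536 TPM in CD4 KO, and Ctss at 361 and 339.6 and 286 and 286. C1qa, whose product joins that of C1qb (chosen after its values were seen), was listed at 0 and 0 TPM (CD4 WT), 8.40 and 11.2 TPM (CD4 KO), 1.09 and 160.1 TPM (CD8 WT) and 1.08 and 11.9 TPM (CD8 KO). Among the listed transcription factors of myeloid development, 3 of 7 tested had a higher mean in CD4 KO (median -0.06, 0 past limma, 0 at an unadjusted p under 0.05). The most abundant were Irf8 (109 TPM on average in CD4 WT, 79.9 in CD4 KO) and Spi1 (listed as Sfpi1), which encodes PU.1 (16.7 and 13.6). The B cell sum given below was lower in CD4 KO too, and the part of B cells in these 2 values was not tested.

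In CD8 cells, with all 8 libraries, the median knockout difference was -1.26 for the further granule genes, -2.04 for receptors, -1.16 for further macrophage genes and -2.09 for the transcription factors, beside 0.05 for all genes. None of their members passed limma, and 2, 5, 4 and 3 were lower at an unadjusted p under 0.05 (of 23, 21, 28 and 7 tested), beside 8.01% of all genes. Against CD8 WT replicate 1 alone, both CD8 KO libraries were higher for 13 of the 27 further granule genes and lower for 3, beside 32.4% and 41.0% of all genes tested. Of 38 further macrophage genes, 13 were higher and 6 lower, so there too more were higher than lower. Receptor genes went the other way, with 6 of 22 higher and 8 lower, as did transcription factors, with 1 of 10 higher and 5 lower. These counts include listed genes too low to be tested, so the shares of tested genes are not a like set.

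Markers of other cells moved with some of these values. B cell genes summed to 15971 and 11993 TPM (CD4 WT), 7406 and 6835 TPM (CD4 KO), 2147 and 28344 TPM (CD8 WT) and 2112 and 2757 TPM (CD8 KO). That sum was lower in both CD4 KO libraries than in both CD4 WT libraries, while the granule and macrophage sums were higher there. Of the B cell genes, 15 of 16 had a lower mean in CD4 KO, with a median of -0.78, 0 past limma and 3 lower at an unadjusted p under 0.05, beside 11.7% of all genes. The sum was highest in the library labelled CD8 WT replicate 2, but only 6 of the 16 genes were. It was led there by Cd74 (11372 TPM) and H2-Ab1 (5519.7 TPM), which macrophages also express. Cd79a, a part of the B cell receptor complex (chosen after its values were seen), stood at 336 TPM there and at 722 and 812 TPM in CD4 WT. Between the wild types, Cd79b (-2.65 ± 0.28, limma adjusted p = 0.00570) and Fcer2a (-3.16 ± 0.46, 0.0311) were lower in CD8 WT than in CD4 WT.

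Erythroid genes summed to 375 and 371 TPM (CD4 WT), 569 and 385 TPM (CD4 KO), 2581 and 97213 TPM (CD8 WT) and 379 and 542 TPM (CD8 KO). Both CD8 WT libraries stood above the rest, and the median CD4 KO difference was 0.22. Hba-a2, an alpha globin gene that shares reads with its near copy Hba-a1, was higher in CD8 WT than in CD4 WT (5.14 ± 0.78, limma adjusted p = 0.0407). That difference includes the library labelled CD8 WT replicate 2, which held the 97213 TPM, and is not given without it. T cell identity genes summed to 9418 TPM in the library labelled CD8 WT replicate 2 and to 13791 to 22171 TPM in the others. Platelet, mast cell and basophil genes summed to 10.9 to 219 TPM, NK cell genes to 34.7 to 219 TPM, and dendritic cell genes to 12.5 to 52.0 TPM. Higher means in CD4 KO were not particular to the myeloid lists. They were seen for 7 of 8 NK cell genes tested (median 0.83, 0 past limma, 0 higher at an unadjusted p under 0.05). The same held for 6 of 9 platelet, mast cell and basophil genes (0.93) and 4 of 6 dendritic cell genes (0.26), beside 41.7% of all genes. The part of these other cells in the myeloid values was not tested.

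The 2 most abundant genes of each of these lists differed in how they stood beside the granule genes. Cd74 and H2-Ab1, antigen presentation genes of B cells and macrophages, averaged 5759 and 2405 TPM in CD4 WT, against 2992 and 902 TPM in CD4 KO. The alpha globin gene Hba-a1 stood at 0 and 0.126 TPM (CD4 WT), 5.19 and 0.308 TPM (CD4 KO), 33.3 and 77329 TPM (CD8 WT) and 10.1 and 2.25 TPM (CD8 KO). The beta globin gene Hbb-bs (listed as Beta-s) stood at 1.20 and 15.1 TPM (CD4 WT), 51.0 and 24.8 TPM (CD4 KO), 220.4 and 8527 TPM (CD8 WT) and 24.0 and 31.2 TPM (CD8 KO). Like most granule genes, both globin genes were higher in CD4 KO than in CD4 WT without overlap (for Hba-a1 at levels near 0) and highest in the library labelled CD8 WT replicate 2. Prss34, a basophil protease gene, stood at 0 and 0 TPM (CD4 WT), 0 and 67.7 TPM (CD4 KO), 1.46 and 52.0 TPM (CD8 WT) and 0 and 0 TPM (CD8 KO), so it was detected in few libraries, and the integrin gene Itgb3 averaged 32.2 TPM in CD4 WT, against 29.3 TPM in CD4 KO. The killer cell gene Gzmb was also higher in CD4 KO without overlap and highest in the library labelled CD8 WT replicate 2, at 0 and 0.125 TPM (CD4 WT), 11.1 and 4.86 TPM (CD4 KO), 0 and 89.7 TPM (CD8 WT) and 2.96 and 4.92 TPM (CD8 KO), while Prf1 averaged 33.8 TPM in CD4 WT, against 9.64 TPM in CD4 KO. Fscn1 and Ccl22, dendritic cell genes, averaged 11.3 and 21.4 TPM in CD4 WT, against 25.0 and 19.4 TPM in CD4 KO. Among T cell genes the homing receptor gene Ccr7 averaged 1933 TPM in CD4 WT, against 3251 TPM in CD4 KO, and the survival receptor gene Il7r 3070.3 and 1087.

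**Figure D4:**
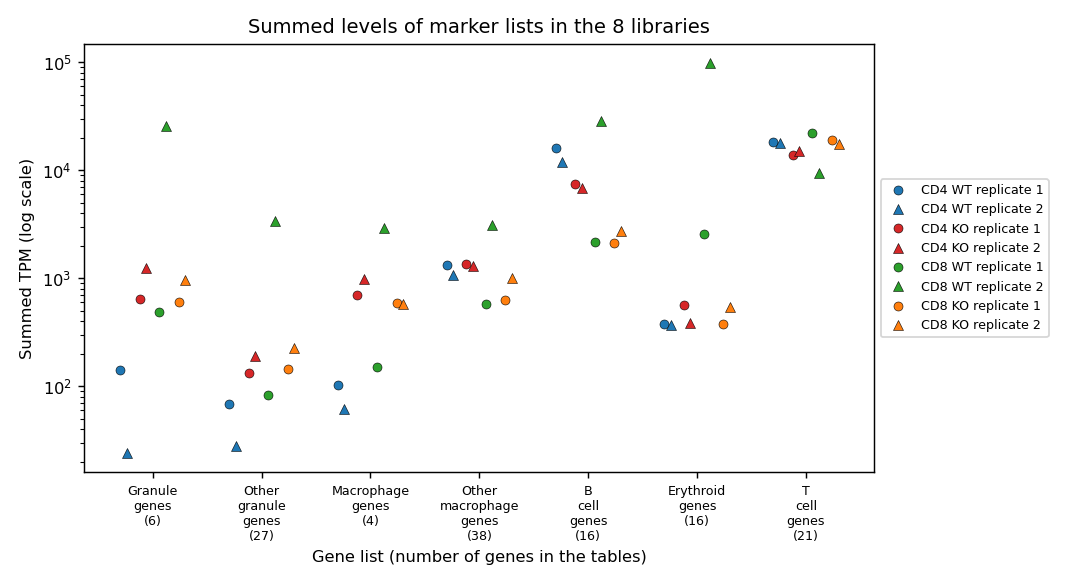
Summed TPM of gene lists in the 8 libraries on a log axis, with the group given by colour and the replicate by the shape of the point. The granule and macrophage sums are higher in CD4 KO than in CD4 WT, the B cell sum is lower, and the erythroid sum is highest in CD8 WT.

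Non-member genes were ranked by Pearson's r of log2(TPM + 1) with the mean of the granule genes, as a description. Over 8 libraries the closest were Alox5ap, a gene of leukotriene synthesis (0.99), Fcer1g, the gamma chain of Fc receptors (0.98), Dnttip1 (0.97) and Fcnb, a ficolin gene of neutrophils (0.97). Alox5ap stood at 3.74 and 1.06 TPM (CD4 WT), 12.4 and 17.6 TPM (CD4 KO), 5.06 and 161 TPM (CD8 WT) and 14.9 and 19.0 TPM (CD8 KO). With the mean of the macrophage genes the closest were Mxd1 (0.99), Gnl3 (0.99) and the early response genes Fos (0.98) and Egr1 (0.98). Fos stood at 7.14 and 7.14 TPM (CD4 WT), 63.6 and 58.2 TPM (CD4 KO), 22.8 and 462 TPM (CD8 WT) and 22.7 and 20.8 TPM (CD8 KO).

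Other genes came first when the library labelled CD8 WT replicate 2 was left out. Over the other 7 libraries they were Fam134a (0.98), Ppp2ca (0.97), Mrps24 (0.97) and Rer1 (0.97) for the granule profile, and Errfi1 (0.99), Sar1a (0.99), Lman2l (0.99) and Rnf114 (0.98) for the macrophage profile. Rer1 stood at 60.1 and 51.9 TPM (CD4 WT), 74.2 and 82.4 TPM (CD4 KO), 65.8 and 26.7 TPM (CD8 WT) and 74.6 and 73.0 TPM (CD8 KO), a narrow range beside that of the granule genes. Each granule gene followed the mean of the other granule genes with r of 0.94 to 0.98 over 8 libraries and 0.84 to 0.95 over 7, and each macrophage gene with r of 0.83 to 0.94 and 0.61 to 0.94. The points share library and scaling, and 1 library sets much of the spread over 8.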

How the data were processed

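RNA from 8 samples of naive T cells was turned into sequencing libraries by a SMARTER mRNA kit (per the labels). Per the submitters' processing notes, HISAT and the build mm10 were used. No source used here names the quantification program. The deposited tables give TPM per gene, per the file headers, and the authors' values sum alike in each library. They also give FPKM, a length-corrected fragment density, and coverage, the mean depth per base, per the file headers. They hold no read counts. The ratio of coverage to FPKM gave the depth of each library, and the coverage of a gene shows how many reads stand behind its level.

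TPM was summed per symbol, and each of the 10 genes has 1 row per library. The 11786 genes averaging 1 TPM or more over the libraries, all 10 members among them, were fitted as log2(TPM + 1) with limma 3.58.1 in R 4.3.3, with 4 group means, an intensity trend, 4 residual and 5.68 prior degrees of freedom, and Benjamini-Hochberg adjustment over all of these genes, called at 0.05. The fit was tested on simulated data with equal noise in each library, which does not cover a deviating library. Over the 7 libraries other than the one labelled CD8 WT replicate 2, the lowest member mean was 1.95 TPM, for C1qb.

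The text names the 10 members, Trappc1, the 2 genes of highest mean TPM in each other list, list genes that were called, and for each profile the 4 genes of highest Pearson correlation among those with at least 10 TPM in some library. Names outside that rule are marked as chosen after their values were seen. The members and lists (other neutrophil, macrophage, B, erythroid, platelet and basophil, NK, dendritic and T cell genes) were chosen with earlier results of these data known. The alternatives were other pseudocounts, filters, scaling and variance settings, a replicate block and leaving out each library. Promoter windows came from RefSeq on GRCm38.p6, and 9 of the 10 members were searched.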

Additional observations from a re-analysis of the deposited data

How the results depend on the processing

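Over the 10 genes, 5 comparisons and all alternatives, 768 values kept their direction and side of the threshold, 51 newly passed it, and 21 values that had not passed changed sign; the sign changes lay in the CD8 knockout comparison and between the knockout lineages. Adding the log2 pseudocount as 0.1 or 5 in place of 1 gave a macrophage median of 3.20 or 1.43 in CD4 cells. Counts of called genes over the whole table moved widely. In CD4 cells (84) they were 0 with no filter, 141 with median-of-ratios scaling (62 higher, 79 lower, in place of 22 and 62), 5 with no trend, 243 with the compared groups alone and 1260 with array weights. In CD8 cells (35) they were 0 with no filter, 15 with no trend, and 0 with the groups alone or array weights. Between wild-type lineages (23) they were 1, 4, 0 and 15 for no filter, no trend, groups alone and array weights, and between knockout lineages (33) 0, 4, 141 and 353, with 50 under median-of-ratios scaling. The cause was not tested.

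That scaling moved the median of all genes from -0.16 to 0.03 in CD4 cells, from 0.24 to -0.05 for the difference of effects and from -0.26 to 0.02 between wild-type lineages, while the CD4 medians of the members became 3.59 and 2.40.

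Leaving out 1 library gave 0 to 768 calls in CD4 cells, 0 to 1842 in CD8 cells, 0 to 1148 for the difference of effects, 0 to 1629 between wild-type lineages and 1 to 153 between knockout lineages. The median difference of effects then ran from -8.05 to -2.12 for granule and from -5.54 to -1.69 for macrophage genes, and the macrophage median between wild-type lineages from 0.70 to 4.98. The ends of the last 3 ranges come from leaving out 1 or the other CD8 WT library.

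With the replicate number as a block, 29 genes were called in CD4 cells and none of the 10 members. Same-numbered libraries deviated together with correlations of only -0.0359 to 0.0942, so no clear shared deviation was seen. The labels do not say whether same-numbered libraries come from the same mice, and these correlations cannot decide it. Coverage limits C1qb, Csf1r and Lcn2 most, and 2 libraries per group limit every comparison.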

Other observations

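Camp, Ngp and Ltf share a stretch of chromosome 9 with 28 other symbols, of which 17 had a mean of at least 1 TPM. Set against CD8 WT replicate 1, the library labelled CD8 WT replicate 2 was higher for 4 of these 17, and it was the highest of the 8 libraries for 1. Their median log2 difference between these 2 libraries was -0.99, beside -0.36 for all genes tested. The highest was 2.29, for Ptpn23, a phosphatase gene named after its values were seen. The 3 granule genes of that stretch were 48.5 to 63.1 times higher in the same library, so the difference did not extend to most of the genes between them.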
